A study of Mus musculus with 24 samples.

Results

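The adipokine and lipid droplet genes are 10 genes that fat cells express strongly: Lep, Adipoq, Retn, Cfd, Plin1, Plin4, Cidec, Fabp4, Pnpla2 and Lipe. They were chosen by name, with earlier results of these data known, and each gene was represented by its brightest probe. They are 10 of the 22911 mouse gene symbols that the probes of the arrays reach. RNA was taken from the liver, the lung, the kidney and the white adipose tissue (WAT) of male C57BL/6J mice aged 10 weeks (10W, called young) or 90 weeks (90W, called aged). Each of the 4 tissues had 3 young and 3 aged mice, which gave 24 arrays, and the aged livers carry the replicate numbers 1, 2 and 4. The labels name no treatment, no altered allele and no fat depot, and they do not say whether 1 mouse gave several tissues. All 6 arrays of a tissue lay on 1 slide with both ages on it, so slide and tissue cannot be told apart.

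White fat cells store triglyceride in a single large droplet and secrete hormones called adipokines. Leptin (Lep) reports fat stores to the brain, adiponectin (Adipoq) raises insulin sensitivity, resistin (Retn) opposes insulin in rodents, and adipsin (Cfd) is complement factor D. Perilipin 1 (Plin1) guards the droplet surface against lipases, perilipin 4 (Plin4) coats small droplets, and CIDEC (Cidec) moves lipid between droplets so that they grow. FABP4 (Fabp4) carries fatty acids inside fat cells, macrophages and capillary endothelium, while ATGL (Pnpla2) and hormone-sensitive lipase (Lipe) cleave the first and the next fatty acid from stored triglyceride. A lung holds some fat cells too, around its large vessels and airways. In bulk RNA, fewer cells of a type and less RNA per cell cannot be told apart.

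Each array file gives a background-subtracted fluorescence signal for each spot, with a flag for spots well above background. A level here is the log2 of that signal minus the log2 of the 75th percentile of its array, so a level of 0 is the 75th percentile. A change is the mean level at 90 weeks minus the mean level at 10 weeks. The share of probes well above background ran from 58.6% to 71.1% over the arrays, and the number of arrays limits the precision. With 3 mice in each group, the smallest p of a two-sided exact permutation test is 0.1. The ages were compared with limma, whose estimate of the spread between mice borrows from all genes of a tissue. A gene was called higher or lower at a Benjamini-Hochberg adjusted p under 0.05. In counts of all genes, an accession matched to no symbol counts as a gene of its own. Those tested with a symbol numbered 16365 for liver, 17764 for lung, 17867 for kidney and 17215 for WAT. Of these, in that order, 12.5%, 3.27%, 23.6% and 1.92% were called higher, and 14.8%, 3.44%, 44.5% and 0.598% lower.

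A few arrays stood apart from the others of their group. In aged lung 1, 59.5% of the probes were well above background, against 66.1% and 70.0% in the other aged lungs, and its summed signal of 8 hepatocyte markers was 227 times the 75th percentile, against 3.30 to 20.1 in the other lungs. Aged lung 2 had a summed neutrophil marker signal of 1482, against 53.9 to 312 in the other lungs. Young WAT 1 had a summed signal of epididymis and testis markers of 878, with Lcn5 the brightest gene, against 0.72 to 7.01 in the other WAT samples. The lowest correlation between arrays of a group, 0.94, was in young WAT.

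Levels in WAT were above those in the other tissues for 9 of the 10 genes. In young WAT the mean level of Adipoq was 8.01 ± 0.57 (SD, n = 3), that of Retn 8.20 ± 0.19 and that of Plin1 5.87 ± 0.42. Adipoq was next highest in the young lung, and since it was well above background in 0 of 3 young livers and 1 of 3 young kidneys, those 2 tissues are not ordered. For Cfd the order of the young tissues was WAT (8.66 ± 0.23), lung (6.03 ± 0.47), liver (0.86 ± 1.86) and kidney (-3.13 ± 2.93), and the ranges of liver and kidney overlap. Retn, Plin1, Plin4, Cidec and Lipe also stood highest in WAT and next in the young lung, although for Plin4 the lung and liver values overlapped. Fabp4 was highest in WAT (8.77 ± 0.07), then in lung (4.70 ± 0.60), kidney (3.58 ± 0.18) and liver (2.35 ± 0.26). Pnpla2, which many tissues use, was also highest in WAT (7.86 ± 0.33) but lay between 4.87 and 5.43 in the other young tissues. Lep was the exception, since its single probe (NM_008493) did not stand out in WAT. Its young mean was -0.27 ± 0.37 in WAT and 0.11 ± 0.20 in liver, and the single probe was well above background on every array. What the Lep probe reads was not tested in any tissue, WAT included, and its values are given as the probe's signal only.

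**Figure D1:**
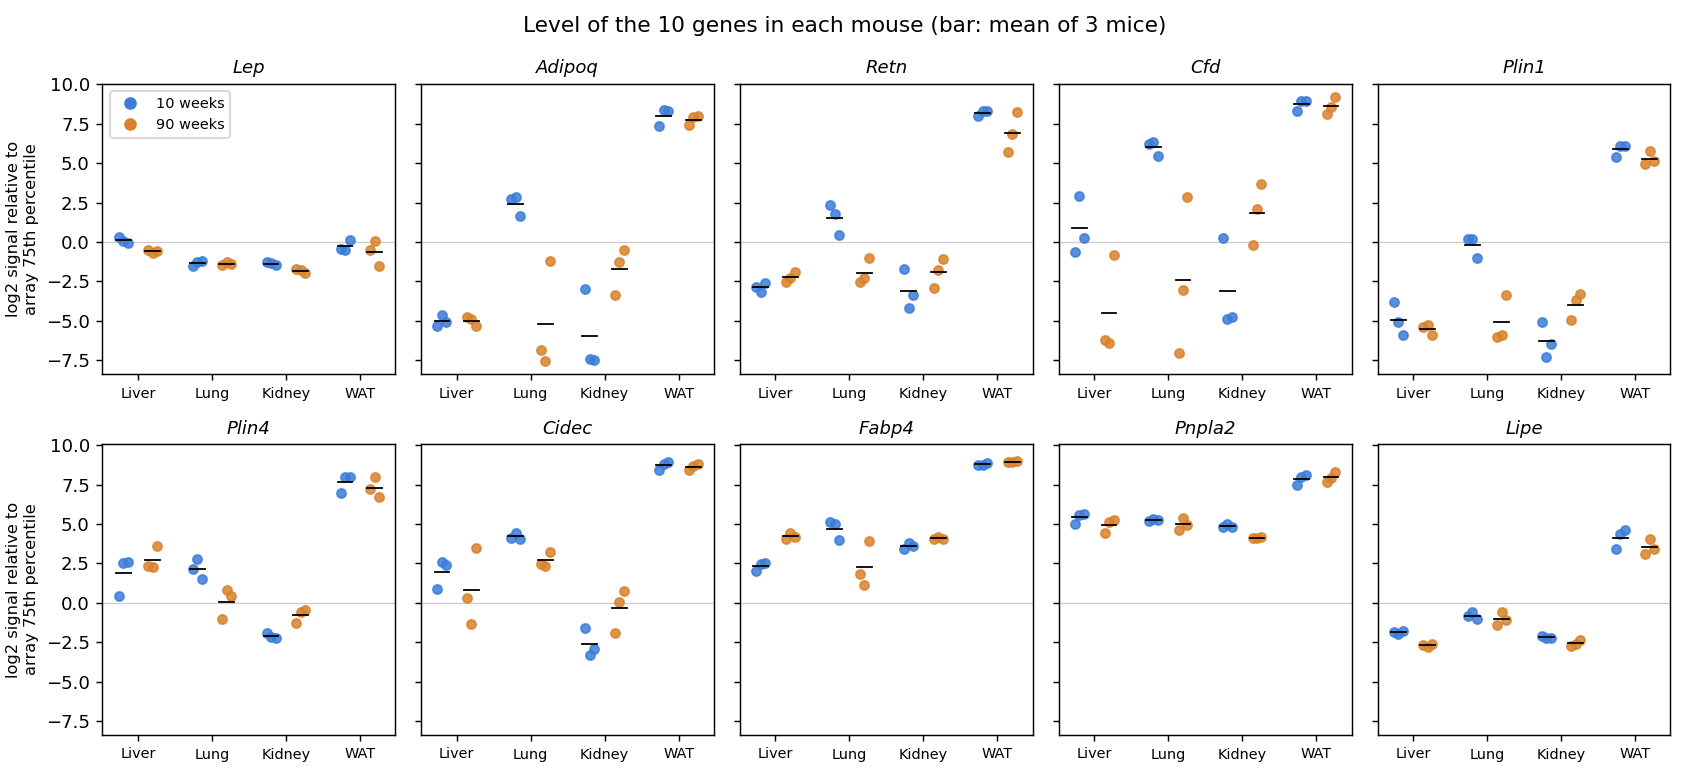
The log2 level of each of the 10 genes relative to the 75th percentile of the array, with 1 point for each mouse (blue 10 weeks, orange 90 weeks) and a bar for the mean of 3 mice in each tissue. In the lung, Adipoq lay between 1.68 and 2.87 in the young mice and between -7.54 and -1.18 in the aged mice, of which 1 was well above background.

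RefSeq's promoter table for GRCm38.p6 holds 9 of the 10 genes, with 11 windows, and has no entry for Fabp4. Motifs were searched on both strands in the 250 bases before each start: CCAAT, TTGCNNAA (a core bound by C/EBP factors, which drive fat cell formation), AGGTCA (a hexamer bound by nuclear receptors), TATAAA and CACGTG. TTGCNNAA occurred in Lep, Plin1 and Cidec, 3 of 9 genes, and in 9.56% of 32851 promoters. CCAAT occurred in Adipoq and Plin4, 2 of 9, and in 33.8% of all promoters. CACGTG occurred in Lipe, 1 of 9, against 6.02% of all, and AGGTCA and TATAAA occurred in 0 of 9, against 14.0% and 12.4%. The sequences shown are the 150 bases before the start of Adipoq and Plin1, whose lung levels differed widely between the ages, and of Lep and Plin4, the other genes with a match in those bases. They are Adipoq at chr16:23146386-23146535 on the plus strand, Plin1 at chr7:79732777-79732926 on the minus strand, Lep at chr6:29060071-29060220 on the plus strand and Plin4 at chr17:56109783-56109932 on the minus strand. Capitals mark the matches, CCAAT or its complement in Adipoq and Plin4 and TTGCNNAA in Plin1 and Lep. A match is a description of the letters, and the build of the promoter table is not that of the array design, mm9.
Adipoq: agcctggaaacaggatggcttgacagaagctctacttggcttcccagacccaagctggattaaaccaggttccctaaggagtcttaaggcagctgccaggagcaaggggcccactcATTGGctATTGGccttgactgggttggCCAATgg
Plin1: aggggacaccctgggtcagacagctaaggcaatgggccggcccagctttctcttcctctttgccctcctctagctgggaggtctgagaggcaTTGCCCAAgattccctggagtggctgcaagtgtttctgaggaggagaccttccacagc
Lep: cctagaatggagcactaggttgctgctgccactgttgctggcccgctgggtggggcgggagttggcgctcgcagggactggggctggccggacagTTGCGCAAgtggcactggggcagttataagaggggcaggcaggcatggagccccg
Plin4: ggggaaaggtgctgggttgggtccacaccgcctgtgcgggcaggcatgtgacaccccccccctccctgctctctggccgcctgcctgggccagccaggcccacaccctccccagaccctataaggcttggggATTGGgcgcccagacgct
The matches in Adipoq begin 34, 27 and 7 bases before the start, and the match in Plin4 begins 18 before it. Plin1 has a TTGCNNAA match at 58 bases and another at 187, outside the window shown, and Lep has 1 at 55.

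The largest changes of the 10 genes were those of Cfd (-8.43) and Adipoq (-7.63) in the lung, neither of them called. Lep, Cidec, Pnpla2 and Lipe changed more in the liver or the kidney than in the lung. Of the 10 genes, 0 were called higher in the lung and 3 were called lower, against 2.72% higher and 2.89% lower of all 30327 genes tested. The unadjusted limma p was under 0.05 for 7 of the 10, all lower, and for 0 in the other direction. In the same 7 every aged mouse lay below every young mouse. How many of all genes met either mark was not counted, here or for the lists below. By the methods' t-test unadjusted, 6 of the 10 passed, all lower. Of all genes tested in the lung, 5027 then passed lower and 2309 higher. The median change of the 10 was -2.25, and that of all genes tested in the lung was -0.08. Since the 10 were chosen with earlier results of these data known, these counts and medians describe them and do not test them as a set. By the methods' t-test after the same adjustment, 0 of the 10 were called. With limma, 0 were called with no filter on dim probes, 0 with the replicate block and 5 with all 24 arrays in 1 fit. The count of 3 changed with the mouse left out. It was 0 without any 1 of the young lungs, 0 without aged lung 1, 1 without aged lung 2 and 6 without aged lung 3. Calls among all lung genes changed as well. They went from 1700 to 2, 24 and 218 without young lungs 1, 2 and 3, and to 1642, 1834 and 1067 without aged lungs 1, 2 and 3.

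Of the 4 adipokines, 1 was called lower in the lung. Adipoq (NM_009605) had levels of 2.76, 2.87 and 1.68 in the young lungs and -6.86, -7.54 and -1.18 in the aged lungs. Aged lungs 1 and 2 were not well above background for its probe, aged lung 3 was, and the groups do not overlap. The change was -7.63 (SE 1.68), and the gene was not called (limma adjusted p = 0.0581, 0.00198 to 0.192 over 16 alternatives). In a fit chosen after seeing the data, with values not well above background raised to the lowest signal that passed on their array, it was -6.25 and was called (adjusted p = 0.0382). Without aged lung 3 no aged lung measured Adipoq, so only a bound is left, at least 189-fold lower (adjusted p = 0.0109 on the values as measured). It was not called without aged lung 1 (-6.79, adjusted p = 0.107) or 2 (-6.46, adjusted p = 0.0936). Cfd (NM_013459) was at 6.25, 6.34 and 5.49 in the young lungs and at -7.02, -3.06 and 2.87 in the aged lungs. Aged lung 3 again lay nearest to the young mice, and aged lung 1 was not well above background for Cfd. The change of Cfd was -8.43 (SE 2.36, limma adjusted p = 0.0942, 0.0208 to 0.255 over the alternatives), or -7.66 with aged lung 1 raised in the same way, and its other probe gave -8.38. Without aged lung 3 it was called (adjusted p = 0.0266), with a change of -11.07, or -9.91 with aged lung 1 raised, and without aged lung 1 it was -6.12 and not called (adjusted p = 0.112). Retn (NM_001204959) was at 2.34, 1.76 and 0.42 in the young lungs and at -2.54, -2.27 and -1.03 in the aged lungs. All 6 lungs were well above background for Retn, and the groups do not overlap. It was called lower, with a change of -3.46 (SE 0.60, adjusted p = 0.0345, 0.00614 to 0.134 over the alternatives), and its other probe gave -3.95. The call of Retn was lost without any 1 of the young lungs (changes of -3.04, -3.33 and -4.00) and without aged lung 1 (-3.16) or 2 (-3.29). For Lep the lung levels overlapped, and the change was -0.04 (adjusted p = 0.837).

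Of the 3 droplet coat genes, 2 were called lower in the lung. Plin1 (NM_175640) was at 0.18, 0.21 and -1.01 in the young lungs and at -6.04, -5.92 and -3.34 in the aged lungs. Only aged lung 3 of the aged lungs was well above background for Plin1, and the groups do not overlap. Plin1 was called lower, with a change of -4.89 (SE 0.79, adjusted p = 0.0291, 0.000466 to 0.126 over the alternatives), or -4.33 with aged lungs 1 and 2 raised. Cidec (NM_178373) was at 4.13, 4.45 and 4.06 in the young lungs and at 2.48, 2.36 and 3.20 in the aged lungs. It was well above background in all 6 lungs, had a narrow spread, and was called lower with a change of -1.53 (SE 0.25, adjusted p = 0.0290, 0.0228 to 0.385 over the alternatives). The call of Plin1 was lost without any 1 of the young lungs (-4.70, -4.69 and -5.29), without aged lung 1 (-4.42) and without aged lung 2 (-4.48). That of Cidec was lost without any 1 of the young lungs (-1.57, -1.41 and -1.61) and without aged lung 1 (-1.43). Plin4 (NM_020568) was at 2.17, 2.79 and 1.52 in the young lungs and at -1.04, 0.81 and 0.43 in the aged lungs. Its groups do not overlap either, but its change of -2.09 (SE 0.55) was not called (adjusted p = 0.0847), and it was -1.54 without aged lung 1.

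Of the 3 genes of fatty acid transport and lipolysis, 0 were called in the lung. Fabp4 (NM_024406) was at 5.10, 4.98 and 4.01 in the young lungs and at 1.84, 1.13 and 3.92 in the aged lungs. Aged lung 3 came close to the lowest young lung, and the change of -2.40 (SE 0.74) was not called (adjusted p = 0.112, 0.00466 to 0.297 over the alternatives). Without aged lung 3 the change of Fabp4 was -3.21, with an adjusted p of 0.0329. Without aged lung 1 it was -2.17 (adjusted p = 0.201) and without aged lung 2 it was -1.82 (adjusted p = 0.177). The other probe of Fabp4 gave -2.58 for lung, 1.88 for liver and 0.42 for kidney, and that of Cfd gave -5.07 for liver and 5.20 for kidney. Pnpla2 (NM_001163689) had a change of -0.27 (adjusted p = 0.416) and Lipe (NM_010719) of -0.20 (adjusted p = 0.609), with overlapping groups in both.

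**Figure D2:**
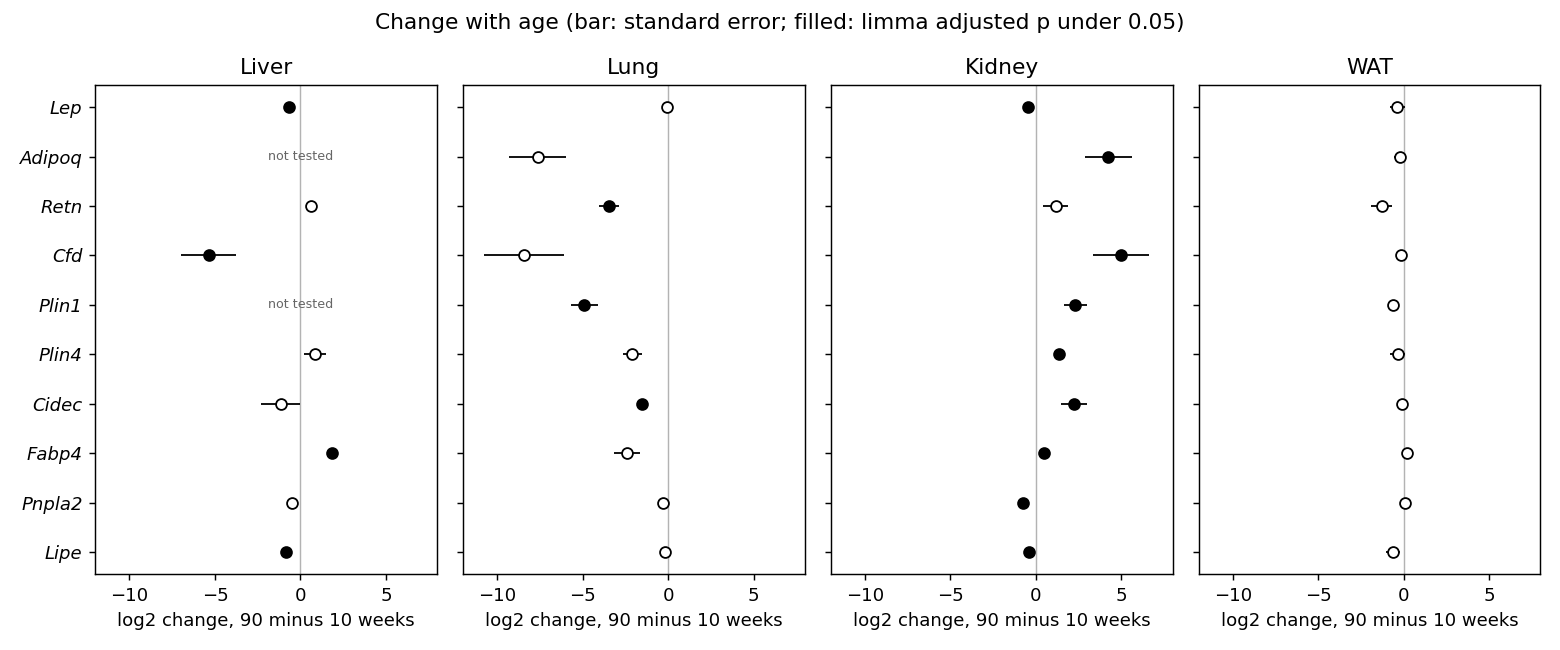
The log2 change from 10 to 90 weeks for each of the 10 genes in each tissue, with the standard error as a bar, and filled points where the limma adjusted p was under 0.05. The counts called were 3 lower for the lung, 6 higher and 3 lower for the kidney, 1 higher and 3 lower for the liver, and 0 for WAT.

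To ask how the lung values relate to adipose tissue, the signal of each lung was expressed as a percent of the mean signal in young WAT, probe by probe. Adipoq was at 2.50%, 2.69% and 1.18% in the young lungs and at most 0.0141% in aged lung 1, at most 0.00790% in aged lung 2 and 0.163% in aged lung 3. The limits stand where a lung was not well above background, and are the lowest signal that passed on its array. Plin1 was at 1.89%, 1.92% and 0.828% in the young lungs and at most 0.0635%, at most 0.0356% and at 0.164% in the aged lungs. In both, young lung 3 was the lowest young lung and aged lung 3 the highest aged lung. Retn followed with 1.71%, 1.14% and 0.452% in the young lungs and 0.0579%, 0.0699% and 0.165% in the aged lungs. Adipoq, Plin1 and Retn were thus between 0.452% and 2.69% of young WAT in the young lungs and at or below 0.165% in the aged lungs. Plin4 was at 2.15%, 3.30% and 1.37% in the young lungs and at 0.232%, 0.837% and 0.643% in the aged lungs, and Lep lay between 40.4% and 50.3% over both ages. Cfd reached 18.7%, 19.9% and 11.02% in the young lungs and at most 0.00936% in aged lung 1, 0.0294% in aged lung 2 and 1.80% in aged lung 3. Fabp4 was at 7.82%, 7.19% and 3.68% in the young lungs and at 0.816%, 0.500% and 3.45% in the aged lungs. Cidec lay between 3.94% and 5.17% in the young lungs and between 1.21% and 2.17% in the aged lungs. Pnpla2 lay between 10.3% and 17.6%, and Lipe between 2.07% and 3.66%, over both ages. The median over the 10 genes was 3.60%, 4.40% and 3.16% in the young lungs and 0.524%, 0.669% and 1.98% in the aged lungs.

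**Figure D3:**
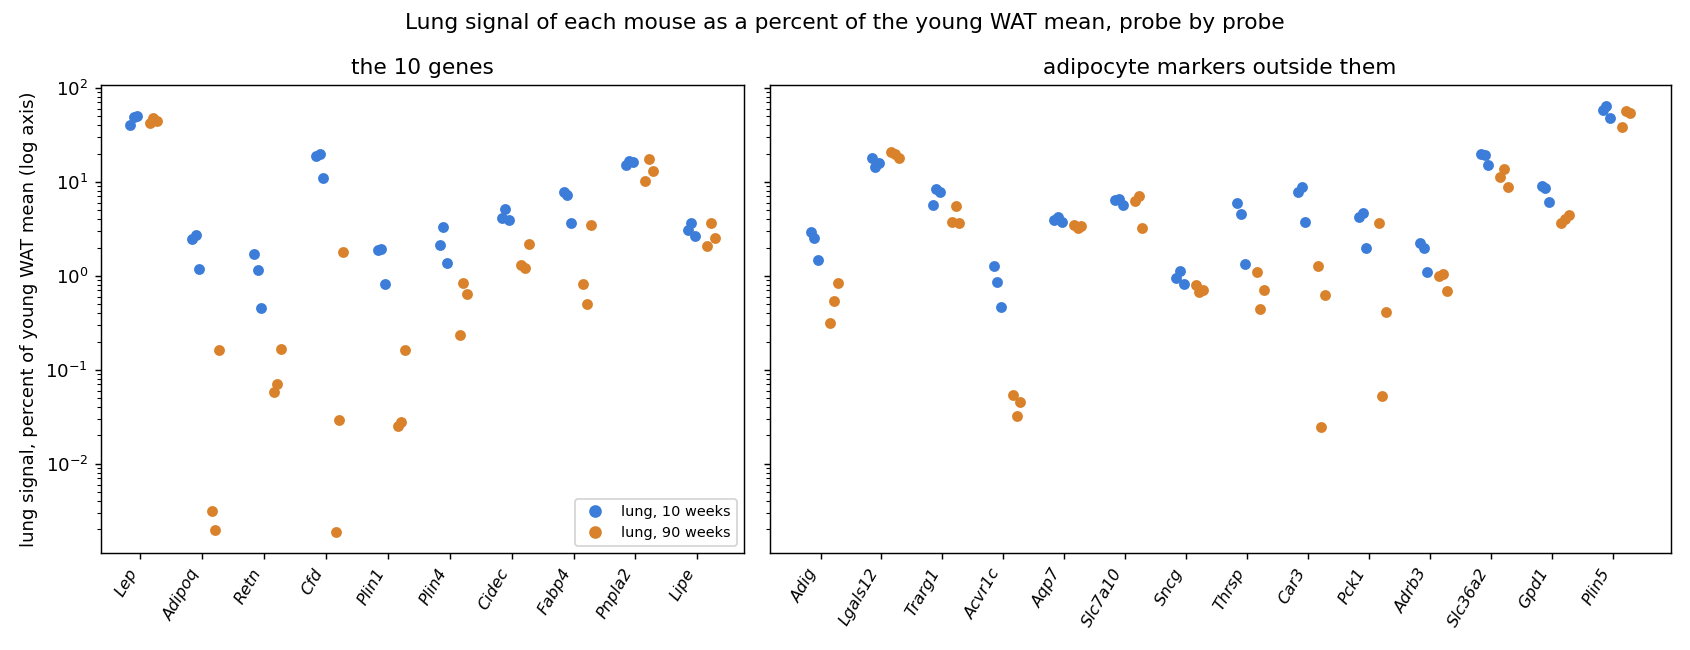
The signal of each lung as a percent of the mean signal in young WAT on a log axis, probe by probe, for the 10 genes and for 14 other fat cell markers, with 1 point for each mouse (blue 10 weeks, orange 90 weeks). Points of Adipoq and Plin1 in aged lungs 1 and 2 and of Cfd in aged lung 1, and of Acvr1c in all 3 aged lungs, were not well above background. Adipoq lay between 1.18% and 2.69% in the young lungs, and Lipe between 2.07% and 3.66% over both ages.

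A list of 14 fat cell markers outside the members was read in the same way. All 14 were well above background in each young lung and 13 in each aged lung. Acvr1c, an activin receptor of fat cells, was the one at background in every aged lung. With its aged values raised to the dimmest spot that passed as above background, it was at least 5.24-fold lower. Acvr1c passed the filter through the young lungs alone. Its call (adjusted p = 0.0107 as measured, 0.0479 with the aged values raised) compared the young lungs with background or with that floor. No test of age is read from it. Counting Acvr1c, 3 of the 14 were called lower in the lung and 0 higher, as measured and with such values raised alike. Also counting it, 10 had an unadjusted limma p under 0.05, all lower, and the methods' t-test after adjustment called 0. The others called, both well above background in all 6 lungs, were Adig and Gpd1. Adig (adipogenin) had a change of -2.09 (adjusted p = 0.0493). The glycerol-3-phosphate dehydrogenase gene Gpd1 had -0.95 (adjusted p = 0.0418). These calls also changed with the mouse left out, as did the count of all lung genes called. That of Acvr1c was lost without young lung 1 (at least 4.16-fold lower, adjusted p = 0.0608 as measured) or 2 (at least 5.07-fold, adjusted p = 0.0609). Adig lost its call without each lung except aged lung 3, with changes from -2.39 to -1.72, and Gpd1 lost it without each of the 6 lungs, with changes from -1.13 to -0.84. In 10 of the 14 every aged lung lay below every young lung, a split that was not counted over all genes. The median change of the list was -0.84, and -0.08 over all genes, and it is the same with Acvr1c at its bound. Lgals12, Slc7a10 and Plin5 showed small changes of 0.28, -0.25 and -0.19, and none of the 3 was called. The summed signal of the 14, in multiples of the 75th percentile, was 74.0, 75.04 and 39.1 in the young lungs and 26.3, 17.4 and 19.0 in the aged lungs, so young lung 3 was again the lowest young lung. The gene with the highest signal in the young lungs was Car3, at levels of 4.81, 4.97 and 3.74, and at 2.19, -3.50 and 1.18 in the aged lungs. Gpd1 was the highest in aged lungs 2 and 3, and Pck1 in aged lung 1, at a level of 2.52 against -3.61 and -0.63 in the other aged lungs. Pck1 is bright in the liver, at 262% to 337% of young WAT in the young livers. So are Plin5 (1066% to 1409%), Car3 (122% to 162%), Gpd1 (114% to 175%) and, less so, Thrsp (44.0% to 65.5%). These genes of the list are thus not particular to fat cells in these arrays. Aged lung 1 is the array with the hepatocyte signal. Without Pck1 its sum was 20.6, and what that signal adds to its other values was not tested. Median percentages of young WAT over the 14 were 5.77%, 5.64% and 3.73% in the young lungs and 3.55%, 2.14% and 2.05% in the aged lungs.

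Markers of heart muscle and other tissues also differed across these arrays. The summed signal of 8 cardiac muscle markers was 346, 287 and 115 in the young lungs and 18.8, 90.9 and 209 in the aged lungs, with Myl4 or Myh6 the highest on most arrays. None of these 8 was called (unadjusted limma p under 0.05 for 1, lower, 0 by the methods' t-test after adjustment), and their median change was -1.84. Young lung 3 was the lowest young lung and aged lung 3 the highest aged lung for this list, as for Adipoq and Plin1. Brown fat markers summed to 42.3, 34.5 and 19.3 in the young lungs and to 7.65, 12.2 and 20.7 in the aged lungs. Skeletal muscle markers summed to 19.1, 14.7 and 6.44 and then to 1.84, 3.81 and 9.47. Both lists thus ordered the lungs within each age as the cardiac list did. Whether these lists read separate tissues was not tested. None of the 10 brown fat markers tested was called (5 lower and 2 higher unadjusted, 0 by the methods' t-test after adjustment), nor any of 6 skeletal muscle markers (4 lower unadjusted, 0 by that test). Fibroblast markers, led by Dcn, summed to 98.6, 98.8 and 74.7 in the young lungs and to 37.4, 34.3 and 49.2 in the aged lungs. Of the 6, Dpt was called lower, with a change of -1.96 (adjusted p = 0.0180), and all 6 had an unadjusted limma p under 0.05, lower. The call of Dpt was lost without any 1 of the young lungs, with changes from -2.02 to -1.92. Mesothelial markers summed to 38.9, 49.6 and 61.8 and then to 33.5, 36.4 and 32.5, and 0 of 6 were called (4 lower unadjusted). Lists of blood cell markers had positive median changes. Called higher in the lung were 4 of 8 B and T cell markers (median change 0.76), 1 of 8 neutrophil markers (0 with values not well above background raised, 6 higher unadjusted, median 2.77) and 1 of 3 red cell markers tested (3 higher unadjusted, median 3.43), and the methods' t-test after adjustment called 0 in each of these lists. Of all genes tested in the lung, 2.72% were called higher. Without young lung 1, and also with the replicate block, 1 gene of all was called higher in the lung. Macrophage markers had 0 of 12 called (2 higher unadjusted, median change 0.54). Endothelial markers had 0 of 10 called (2 lower unadjusted, median change 0.01). Among markers of the lung itself, 10 alveolar and airway markers, led by Sftpc, summed to 2180, 2122 and 2225 in the young lungs and to 1918, 2721 and 1923 in the aged lungs. Of these 10, 1 was called lower and 0 higher (0 by the methods' t-test after adjustment), and in 3 every aged lung lay below every young lung. The gene called was Lamp3, a lamellar body marker of type II alveolar cells, at -0.59 (adjusted p = 0.0439), and its call was lost without each lung except aged lung 1, with changes from -0.63 to -0.53. What part adipose tissue, or any of these other tissues, has in the lower values of Adipoq, Retn, Cfd, Plin1 and Cidec was not tested.

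**Figure D4:**
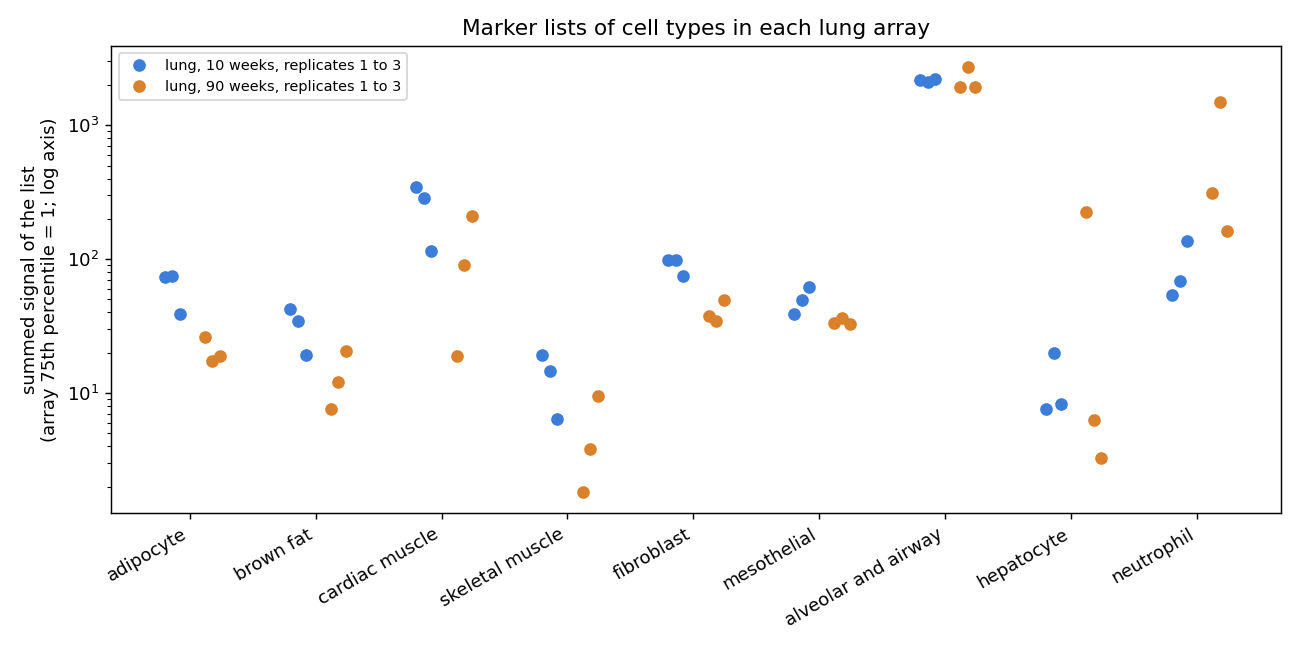
The summed signal of each marker list in each of the 6 lungs, in multiples of the array's 75th percentile on a log axis (blue 10 weeks, orange 90 weeks, replicates 1 to 3 from left to right). The fat cell list lay between 39.1 and 75.04 in the young lungs and between 17.4 and 26.3 in the aged lungs.

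Outside the 10, the genes with a lung profile most like that of Adipoq were sought. Likeness was the root mean square difference between log2 levels centred on their mean over the 6 lungs, among 16032 genes well above background in all of them. The nearest were Bpifb1 (1.12, Pearson r 0.97), Bpifa1 (1.59, r 0.99), Scgb3a1 (1.64, r 0.96), Tff2 (1.77, r 0.96) and Muc5b (2.44, r 0.96). Each encodes a secreted protein. None was among the 10 genes chosen for the alveolar and airway list, which does not mean that they are not airway genes. The cells they come from were not tested. Their lung changes were -6.38, -4.86, -4.91, -4.22 and -3.37, and since the 5 were picked for their likeness to Adipoq, no test of age is read from them. Bpifb1 was at 5.64, 5.75 and 5.63 in the young lungs and at -3.90, -1.61 and 3.37 in the aged lungs. Among the members, Cfd had a difference of 1.54 (r 0.96) and Plin1 of 1.79 (r 0.99). The Adipoq levels of aged lungs 1 and 2 were not well above background, the arrays share slides within a tissue, and these values are descriptions with no test.

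In the kidney the same genes mostly lay higher at 90 weeks. Of the 10 genes, 6 were called higher and 3 lower, while 20.6% of all 31505 genes tested were called higher and 42.6% lower. The median change of the 10 was 1.24, and that of all genes was -0.23. Scaling the arrays to their spike-in spots moved that median of all genes in the kidney to 0.14, with 9483 genes then called higher and 4882 lower. Under that scaling 6 members were called. Leaving out young kidney 2 or aged kidney 2 brought the count of 9 members to 4, and leaving out young kidney 3 or aged kidney 3 brought it to 5.

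Adipoq in the kidney was at -2.98, -7.40 and -7.45 in the young mice and at -3.35, -1.28 and -0.53 in the aged mice. Young kidney 1 alone of the young kidneys was well above background, it lay above aged kidney 1, and all 3 aged kidneys were well above background. It was called higher, with a change of 4.23 (SE 1.38, adjusted p = 0.0354, 0.00425 to 0.104 over the alternatives). With young kidneys 2 and 3 raised the change was 2.82, and with normexp background correction 2.05. Cfd was at 0.24, -4.90 and -4.75 in the young kidneys and at -0.19, 2.09 and 3.70 in the aged kidneys. It had the same order of mice as Adipoq at 90 weeks, with young kidney 1 again within the aged range, and was called higher with a change of 5.00 (SE 1.64, adjusted p = 0.0361, 0.00607 to 0.106 over the alternatives). Plin1 was at -5.04, -7.31 and -6.46 in the young kidneys and at -4.93, -3.65 and -3.32 in the aged kidneys. Its groups do not overlap, although young kidney 1 lay close to aged kidney 1 and was the only young kidney well above background for Plin1. Its change was 2.30 (adjusted p = 0.0233, 0.00846 to 0.0772 over the alternatives), or 1.26 with young kidneys 2 and 3 raised and 0.60 with normexp. Cidec, with a change of 2.24 (adjusted p = 0.0428), overlapped between the ages. The calls of Adipoq, Cfd, Plin1 and Cidec were each lost without young kidney 2 (changes of 3.50, 4.12, 1.79 and 1.89), young kidney 3 (3.47, 4.20, 2.21 and 2.09), aged kidney 2 (4.01, 4.89, 2.14 and 2.03) and aged kidney 3 (3.63, 4.09, 1.98 and 1.68). Retn overlapped and was not called (1.15, adjusted p = 0.212, and 2.82 by its other probe, well above background on 4 of the 6 arrays), but without young kidney 1 its change was 1.84 and it was called (adjusted p = 0.0408). As a share of young WAT these values were small: Adipoq was at most 0.256% and Cfd at most 3.20% in any kidney.

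Plin4 and Fabp4 rose in the kidney with little spread. Plin4 was at -1.93, -2.19 and -2.23 in the young kidneys and at -1.28, -0.61 and -0.48 in the aged kidneys, a change of 1.33 (SE 0.22, adjusted p = 0.00290). Fabp4 was at 3.41, 3.76 and 3.57 in the young kidneys and at 4.04, 4.18 and 4.03 in the aged kidneys, a change of 0.50 (SE 0.11, adjusted p = 0.00936). Neither gene's groups overlap, and both calls held without each of the 6 kidneys and were lost with all 24 arrays in 1 fit (adjusted p = 0.0680 for Plin4 and 0.382 for Fabp4). Fabp4 was at 0.88 with quantile normalization and 0.87 with spike-in scaling. The lipases moved the other way. Pnpla2 was at 4.80, 4.98 and 4.84 in the young kidneys and at 4.11, 4.09 and 4.19 in the aged kidneys, a change of -0.75 (SE 0.08, adjusted p = 0.000674), or -0.32 with quantile normalization. Lipe (-0.39, adjusted p = 0.0216) and the Lep probe (-0.45, adjusted p = 0.00948), whose target is in doubt, were called lower as well, close to the median change of all genes, -0.23. The call of Lipe was lost without young kidney 1 (-0.35) or 2 (-0.41) and without aged kidney 1 (-0.32) or 2 (-0.37). With spike-in scaling in the kidney, the changes were -0.37 for Pnpla2, -0.02 for Lipe and -0.07 for Lep, and none of these 3 was called. Of the 14 other fat cell markers, 12 were tested in the kidney, 3 were called higher and 5 lower, with a median change of -0.33. Their summed signal was 305, 379 and 377 in the young kidneys and 117, 159 and 201 in the aged kidneys, most of it from Pck1, which kidney tubules express. Macrophage markers (11 of 12) and fibroblast markers (6 of 6) were called higher in the kidney, and their part in the changes of Fabp4 and the other members was not tested.

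In the liver 1 member was called higher and 3 lower of the 8 tested, while 10.5% of all 27906 genes were called higher and 17.0% lower. Adipoq was well above background in 0 of the 6 livers and Plin1 in 1, so neither was tested. The median change of the 8 was -0.59, and that of all genes was -0.20, which spike-in scaling moved to -0.01 with 2870 genes called higher and 801 lower. Fabp4 was at 2.05, 2.47 and 2.53 in the young livers and at 4.06, 4.42 and 4.16 in the aged livers. Every aged liver lay far above every young liver, and the change of 1.86 (SE 0.20) was called higher (adjusted p = 0.00264, 0.000400 to 0.0393 over the alternatives, called in 16 of 16). Macrophage markers, 9 of 12 called higher in the liver with a median change of 2.12, moved with it, and their part in the Fabp4 result was not tested.

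Cfd in the liver was at -0.63, 2.94 and 0.28 in the young mice and at -6.23, -6.42 and -0.83 in the aged mice. Aged liver 4 nearly reached young liver 1, and it was the only aged liver well above background for Cfd. It was called lower, with a change of -5.36 (SE 1.61, adjusted p = 0.0473, 0.00900 to 0.154 over the alternatives), or -4.43 with aged livers 1 and 2 raised. Without any 1 of young livers 1, 2 and 3 (changes of -6.10, -4.32 and -5.65) or aged livers 1 and 2 (-4.49 and -4.39) it was not called. Lipe was called lower at -0.81 (SE 0.15, adjusted p = 0.0128) and the Lep probe, in doubt here too, at -0.69 (SE 0.17, adjusted p = 0.0269), with no overlap of the groups in either. With spike-in scaling they were -0.62 and -0.50 in the liver, and neither Lipe nor Lep was called. The call of Lep was also lost without young liver 1 (-0.59) or 2 (-0.71) and without aged liver 1 (-0.74) or 2 (-0.64). The count of 4 members was 2 without any 1 of young livers 1 and 2 and aged livers 1 and 2. Cidec, at 0.89, 2.56 and 2.41 in the young livers and 0.33, -1.34 and 3.46 in the aged livers, overlapped and was not called (-1.14, adjusted p = 0.469). Without aged liver 4 its change was -2.46, and it was called (adjusted p = 0.0476). Retn (0.63, adjusted p = 0.0805, its other probe being well above background in 0 livers), Plin4 (0.87, adjusted p = 0.326) and Pnpla2 (-0.48, adjusted p = 0.221) were not called.

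In WAT itself 0 of the 10 genes were called, while 2.01% of all 30063 genes were called higher and 0.579% lower. Unadjusted, limma gave 0 of 10 a p under 0.05. The methods' t-test gave 0 after adjustment and 1 unadjusted, for Fabp4. The median change of the 10 was -0.30, and that of all genes was -0.05. Adipoq was at 7.36, 8.35 and 8.33 in young WAT and at 7.42, 7.91 and 7.97 in aged WAT, a change of -0.25 (SE 0.33, adjusted p = 0.721) with overlapping groups. Retn had the largest change of the 10, with levels of 7.99, 8.33 and 8.30 in young WAT and 5.72, 6.84 and 8.23 in aged WAT. Aged WAT 3 lay within the young range, and the change of -1.28 (SE 0.61) was not called (adjusted p = 0.318). It was -0.67 without aged WAT 1 and -1.92 without aged WAT 3. Fabp4 was at 8.74, 8.72 and 8.86 in young WAT and at 8.95, 8.90 and 9.01 in aged WAT, the one member whose groups do not overlap there, with a change of 0.18 (adjusted p = 0.547). The other probe of Fabp4 gave -0.03 in WAT, of the opposite sign, and that of Retn gave -1.21. Plin1 (-0.60), Lipe (-0.61), Lep (-0.39), Plin4 (-0.35), Cfd (-0.13), Cidec (-0.09) and Pnpla2 (0.09) overlapped between the ages. The value of Cfd is from its brightest probe in WAT, and the probe used for Cfd in the other tissues and in the levels above gave 0.04. Without young WAT 1, the array with the epididymis and testis signal, the changes were -0.57 for Adipoq, -0.96 for Lipe, -0.70 for Plin4, -0.34 for Cfd, -0.24 for Cidec and -0.10 for Pnpla2. None of the 10 was called without it or without any other WAT array, although small changes varied with single mice. Of the 14 other fat cell markers 0 were called in WAT (unadjusted limma 3, all lower, the methods' t-test after adjustment 0), with a median change of -0.41. Macrophage markers (3 of 12) and lymphocyte markers (7 of 8) were called higher in WAT, while the methods' t-test after adjustment called 0 in both lists.

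To test whether the change with age differed between a tissue and WAT, all 24 arrays were fitted together, over 25773 genes with a probe that passes in every tissue. There, 8 of the 10 members could be tested, since Adipoq and Plin1 fail in the liver. Between lung and WAT the difference passed for 1 member, while 3.24% of all genes passed (unadjusted, 4 of 8 members). It was Fabp4, whose change was lower in the lung than in WAT by a difference of -2.58 (SE 0.62, adjusted p = 0.0274). This difference did not pass without replicate 1 or 2 of either age: it was -2.36 and -2.41 without young replicates 1 and 2, and -2.35 and -2.02 without aged replicates 1 and 2. Without aged replicate 3, Cfd passed as well (-10.92, adjusted p = 0.0191). In a fit of the lung and WAT arrays alone, chosen after seeing the data, 0 of 10 passed while 46 of 28294 genes did (0.163%). There limma gave 7 of the 10 an unadjusted p under 0.05, and the adjusted p was 0.209 for Fabp4, 0.124 for Adipoq (difference -7.38) and 0.0844 for Plin1 (difference -4.30). With all 24 arrays and no filter on dim probes, the limma adjusted p was 0.0406 for Adipoq, 0.0275 for Plin1 and 0.0409 for Fabp4. Adipoq and Plin1 were not well above background in aged lungs 1 and 2. Between liver and WAT 0 of 8 passed, while 18.9% of all genes did (unadjusted limma 1). The fit of those tissues alone gave 1 of 8, against 4.03% of 26532 genes, and it was Fabp4 at 1.68 (adjusted p = 0.0105). Between kidney and WAT 0 of 8 passed, while 25.1% of all genes did (unadjusted limma 3). The fit of those tissues alone gave 2 of 10, against 18.8% of 28842 genes, Plin1 at 2.90 (adjusted p = 0.0334) and Plin4 at 1.69 (adjusted p = 0.0470). Retn passed for the kidney without young replicate 1 (3.23) or aged replicate 3 (2.66). Lung, liver and kidney are compared with the same WAT arrays, so these 3 comparisons are not independent.

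The partners of these genes were read as lists, against the shares called of all genes. For the liver these shares were 10.5% higher and 17.0% lower, for the lung 2.72% and 2.89%, and for the kidney 20.6% and 42.6%, so most genes tested in the kidney were called. Of 17 genes of droplet coats, droplet formation and lipolysis partners, 5 were called lower in the liver and 0 higher (unadjusted limma 2 higher and 8 lower), 1 lower in the lung, and 11 lower and 2 higher in the kidney. Plin2, the droplet coat of liver cells, fell by 1.46 in the liver (adjusted p = 0.0257), and Fitm2, which helps droplets bud, fell by 1.28 (adjusted p = 0.0282). Both calls were lost without young liver 1, 2 or 3 or aged liver 1, with changes from -1.52 to -1.38 for Plin2 and from -1.40 to -1.15 for Fitm2, and that of Fitm2 also without aged liver 2 (-1.03). In the lung the gene called was Pnpla3, a lipase relative of Pnpla2, with a change of -1.77 (adjusted p = 0.0209), or -1.11 with normexp, and its call was lost without young lung 1 (-1.64) or 2 (-1.65) or aged lung 3 (-1.74). In the kidney Fitm1 (-1.75, adjusted p = 0.00153) and Cideb (-1.42, adjusted p = 0.000550, -0.89 with quantile normalization) had the largest changes. Fitm1 was called in 15 of 16 alternatives, with an adjusted p of up to 0.126. The list had a median change of -0.61 in liver and in kidney, -0.19 in lung and -0.29 in WAT.

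Signals that start or stop lipolysis gave 3 higher and 2 lower of 12 in the liver, 2 lower of 13 in the lung (1 with values not well above background raised) and 6 higher and 5 lower of 13 in the kidney. In the liver the adrenergic receptor gene Adrb1 rose by 2.30 (adjusted p = 0.00624, up to 0.0543 over the alternatives, called in 15 of 16). Hcar1, the lactate receptor of fat cells, was well above background in 3 young lungs and 0 aged lungs. Its call (adjusted p = 0.0154) compared the young lungs with background, and it was not called with the aged values raised (adjusted p = 0.0896). Irs1, an adaptor of the insulin receptor, fell by 1.04 in the lung (adjusted p = 0.0330). The call of Hcar1 as measured was also lost without any 1 of the young lungs, and that of Irs1 without any 1 of them (-1.03, -1.02 and -1.05) or aged lung 2 (-1.07). In the kidney Hcar2, the niacin receptor, rose (2.73, adjusted p = 0.0422, 1.61 with the 2 young kidneys not well above background raised and 1.00 with normexp), as did Prkar2b, a regulatory subunit of protein kinase A (0.93, adjusted p = 0.00212). Prkar2b was called in 15 of 16 alternatives, with an adjusted p of up to 0.0817. The call of Hcar2 was lost without any 1 of the kidneys except young kidney 1, with changes from 2.03 to 2.76.

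Of 5 receptor genes for adipokines, 1 was called lower in the liver, 0 in the lung (unadjusted limma 1, lower, the methods' t-test after adjustment 0), and 3 lower and 1 higher in the kidney. Adipor2, an adiponectin receptor, fell by 1.01 in the liver (adjusted p = 0.0158), and was not called without young liver 1 (-1.01) or 2 (-0.96). In the kidney Adipor1 fell by 0.66 (adjusted p = 0.00142), was at -0.34 with quantile normalization and was not called with spike-in scaling (-0.29), and the brightest probe of the leptin receptor gene Lepr fell by 0.69 (adjusted p = 0.0273). The mean of all Lepr probes gave 0.13, of the opposite sign, and the call of the brightest was lost without aged kidney 2 (-0.60) or 3 (-0.69). Of 11 other secreted factors, 4 were called higher and 1 lower of 10 in the liver, 0 of 11 in the lung (unadjusted limma 1 higher and 2 lower, the methods' t-test after adjustment 0), and 4 higher and 2 lower of 10 in the kidney. Lcn2, lipocalin 2, which neutrophils also express, rose by 4.97 in the liver (adjusted p = 0.0230) and 5.82 in the kidney (adjusted p = 9.07e-06). The liver call of Lcn2 was lost without young liver 1 (4.73) or 2 (4.66) or aged liver 1 (5.03).

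Transcription factors of fat cells gave 0 of 12 called in the liver (unadjusted limma 2 higher and 1 lower, the methods' t-test after adjustment 0), 1 lower of 14 in the lung, and 4 higher and 6 lower of 13 in the kidney. In the lung it was Ebf2, a factor of brown fat precursors, with a change of -2.52 (adjusted p = 0.0298) and 1 aged lung well above background. It was at -1.40 with the other aged lungs raised (adjusted p = 0.0669) and at -1.04 with normexp (adjusted p = 0.0564), and was not called in either. Its call was also lost without any 1 lung except aged lung 3, with changes from -2.79 to -2.30. In the kidney Cebpd rose by 2.11 (adjusted p = 5.59e-05) and Klf15 fell by 1.36 (adjusted p = 0.00176). Genes of lipid supply to fat cells gave 2 higher and 4 lower of 13 in the liver, 3 lower of 14 in the lung and 2 higher and 9 lower of 14 in the kidney. In the liver the glucose transporter gene Slc2a4 rose by 2.58 (adjusted p = 0.0313) and Gpd1 fell by 1.82 (adjusted p = 0.00652, up to 0.0629 over the alternatives, called in 15 of 16). The call of Slc2a4 was lost without each of the livers except aged liver 2, with changes from 1.93 to 2.83, and the change was 1.69 with normexp. In the lung, beside Gpd1, the acyl-CoA synthetase gene Acsl1 fell by 0.71 (adjusted p = 0.0430), a call lost without any 1 of the 6 lungs, with changes from -0.83 to -0.65. In the kidney Lpl, the lipoprotein lipase gene, fell by 2.02 (adjusted p = 8.05e-05), and Cd36, a fatty acid transporter, fell by 1.73 (adjusted p = 0.000532). In WAT 0 genes of these 6 lists were called. Unadjusted limma gave 3 higher and 3 lower of 16 droplet genes, 3 lower of 13 lipolysis signals, 1 higher of 5 receptors, 1 higher and 2 lower of 10 secreted factors, 1 lower of 14 transcription factors and 3 lower of 14 lipid supply genes. The methods' t-test gave 0 after adjustment in each of the 6 lists.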

How the data were processed

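The deposited intensity of each of the 62976 spots is a background-subtracted signal in arbitrary units, unscaled between arrays, which the authors obtained with Feature Extraction 11.0.1.1. The headers name a mouse array design on mm9, while the study's methods name a kit for human genes. Probe accessions were matched to RefSeq symbols of GRCm38.p6 (32994 of 56605 probes). Spots marked uneven or outlying were dropped (1841, at most 135 an array), and no spot was saturated. Signals were put on the log2 scale and the array's 75th percentile was subtracted. A probe was kept when 3 or more of a tissue's 6 arrays had it well above background, and the brightest represented its gene. Tissues were fitted apart with limma 3.58.1 in R 4.3.3, and p-values adjusted over all genes of the tissue. The fit was tested on simulated data. The members and lists were chosen with earlier results of these data known. Named are all members, the most changed called genes of each list (up to 2 a tissue), the brightest or counted markers, and the 5 genes nearest to Adipoq. Some withheld genes are counted but not reported here. Cell type markers that were summed and counted served as descriptions. Alternatives were normexp with an offset of 16, quantile normalization, spike-in scaling, centring on the tested genes' median, no filter, probe means for a gene, a joint fit of the 24 arrays, the replicate block, the methods' t-test and each mouse left out.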

Additional observations from a re-analysis of the deposited data

Results flagged for a closer look

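The change of Fabp4 with age differed between lung and WAT when the difference itself was tested in the fit of all 24 arrays, by -2.58 (limma adjusted p = 0.0274). The change of Fabp4 was -2.40 in the lung, where every aged mouse lay below every young mouse but no call was made, and 0.18 in WAT. Over 11 alternatives the difference ran from -3.36 to -2.02 and its adjusted p from 0.000105 to 0.209. Its cause was not tested.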

How the results depend on the processing

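Over the alternatives, the members called in the liver (4) were 2 with spike-in scaling, 2 with the replicate block and 2 by the methods' t-test after adjustment. Those in the lung (3) were 0 with no filter on dim probes, 5 with all 24 arrays in 1 fit, 0 with the replicate block, 0 by the methods' t-test after adjustment and 6 by it unadjusted. Those in the kidney (9) were 5 with all 24 arrays, 4 with the replicate block and 5 by the methods' t-test after adjustment. In WAT (0) the methods' t-test unadjusted gave 1. Leaving out 1 mouse gave 2 to 5 in the liver, 0 to 6 in the lung and 4 to 9 in the kidney, and 0 in WAT.

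Of all genes in the liver (7677), 3671 were called with spike-in scaling, 16124 with no filter, 11523 with all 24 arrays, 1698 with the replicate block, 3106 by the methods' t-test after adjustment and 2494 to 7146 with 1 mouse left out. In the lung (1700) these were 1108, 440, 974, 1, 231 and 2 to 1834, and 7336 by the methods' t-test unadjusted. In WAT (779) they were 489 with no filter, 6390 with all 24 arrays, 364 with the replicate block, 1 by the methods' t-test after adjustment, 5314 by it unadjusted and 246 to 586 with 1 mouse left out.

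For the difference from WAT, the liver count (0) was 1 with quantile normalization and 1 in the fit of both tissues alone. The lung count (1) was 0 with spike-in scaling, 3 with no filter, 0 in the fit of both tissues alone and 0 to 2 with a replicate number left out. The kidney count (0) was 2 in the fit of both tissues alone and 0 to 1 with a replicate number left out. With values not well above background raised, the lung count of members called was 4, and the counts for liver (4), kidney (9) and WAT (0) stayed. This raising and the fit of both tissues alone were chosen after seeing the data.

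Signs reversed for genes with small changes that were not called, and for Lepr in the kidney, which was called. The change of Lepr was -0.69 by its brightest probe and 0.13 by the mean of its probes. Pnpla2 in WAT was -0.12 with quantile normalization. With 1 mouse left out, lung values of Lep lay between -0.14 and 0.0147, and WAT values between -0.75 and 0.0368, and in WAT Cfd ranged from -0.43 to 0.13, Cidec from -0.24 to 0.0257 and Pnpla2 from -0.10 to 0.23. Over named genes and alternatives, 1071 values kept their sign and side of the threshold, 213 lost a call, 33 gained one and 9 reversed. The causes were not tested. The replicate numbers do not pair animals: deviations of young and aged mice of 1 number correlated between -0.17 and 0.18 over genes. Signal over background limits what can be read of Adipoq and Plin1 in the liver, in aged lungs 1 and 2 and in young kidneys 2 and 3, and of Cfd in aged lung 1 and in aged livers 1 and 2.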
